A study of Mus musculus with 2 samples.

Results

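The RANKL, OPG, RANK and CSF1 axis is represented here by 6 genes, taken by symbol from the 32285 genes listed for each library. They were the ligand genes Tnfsf11 (RANKL), Csf1 (M-CSF) and Il34 (IL-34), the receptor genes Tnfrsf11a (RANK) and Csf1r (the M-CSF receptor), and Tnfrsf11b (osteoprotegerin, OPG), the gene of a soluble decoy. All 6 were found in the gene list of both libraries. Single-cell RNA sequencing with the 10x Genomics 3' v3.1 chemistry was done on tissue of 8-week-old C57BL/6J males. The tissue was periodontal ligament, the fibrous layer that joins tooth root and alveolar bone. In the orthodontic tooth movement (OTM) library the upper left first molar had carried a 10-g force directed mesially for 6 days, and tissue of 5 mice was pooled. The control library held pooled tissue of the right side, which bore no appliance load, also from 5 mice; the labels do not say whether these were the same animals. Tissue came from extracted roots and their sockets and was digested with collagenase and then trypsin.

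RANKL on the surface of stromal cells, or shed from it, binds RANK on cells of the monocyte lineage and, together with signalling through the M-CSF receptor, drives their fusion into bone-resorbing osteoclasts. OPG binds RANKL and keeps it from RANK. M-CSF and IL-34 are unrelated in sequence but share the M-CSF receptor, which macrophages and osteoclast precursors need to survive and divide. In the periodontal ligament, bone resorption on the side toward which a tooth is pushed depends on osteoclasts formed in this way.

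Each condition was 1 library, so no spread between mice could be estimated and no test was made. A level is the sum of a gene's unique molecular identifiers (UMIs) over the cells of a group, given in CPM, the gene's UMIs scaled to a group total of 1000000 UMIs. Intervals are exact 95% intervals, of Poisson type for levels, of Clopper-Pearson type for shares and from a conditional binomial for ratios. They cover counting error only, and not the variation between mice or between cells. After cell filtering, 1412 OTM cells with 35518568 UMIs and 348 control cells with 5593726 UMIs were analysed, with medians of 19583 UMIs per OTM cell and 14877 per control cell, and no barcode was shared. Cells were clustered without the 6 genes and named from marker lists, so the names are written as fibroblast-like and so on. The stromal cells, 690 OTM and 160 control, comprised a large cluster led by Pcp4 and Wif1 that stayed unnamed, and cells named as mural, osteoblast lineage or fibroblast. All 13 fibroblast markers, among them the ligament genes Scx and Tnmd, were detected in stromal cells of both libraries. The mononuclear phagocytes, 117 OTM and 39 control, comprised macrophage or monocyte-like, osteoclast-like and dendritic-like cells. The libraries also held epithelial, endothelial, blood and nerve sheath cells.

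The UMIs of each gene lay mostly in 1 or a few cell groups, and the leading group was the same in both libraries. Stromal cells held 97.0% of the Tnfsf11 UMIs of the OTM library and 77.8% of the few in the control library. They also held 83.8% of the Tnfrsf11b UMIs in OTM and 96.2% in control. Both ligand and decoy were thus read mainly from connective tissue cells. Mononuclear phagocytes held 60.8% of the Tnfrsf11a UMIs in OTM and 80.0% in control, and 87.6% of the Csf1r UMIs in OTM and 96.0% in control. Endothelial-like cells held most of the remaining Tnfrsf11a UMIs, 35.9% in OTM and 18% in control. Csf1 was spread more widely, with 57.2% of its UMIs in stromal cells of the OTM library and 51.8% in those of the control library. For Il34 the stromal share was 61.6% in OTM and 65.3% in control. A share also depends on how many UMIs a group gave. Of the UMIs of all genes, stromal cells held 17922687 of 35518568 in OTM and 3446201 of 5593726 in control. Beside this, the control share of Csf1 was lower and that of Il34 was close.

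**Figure D1:**
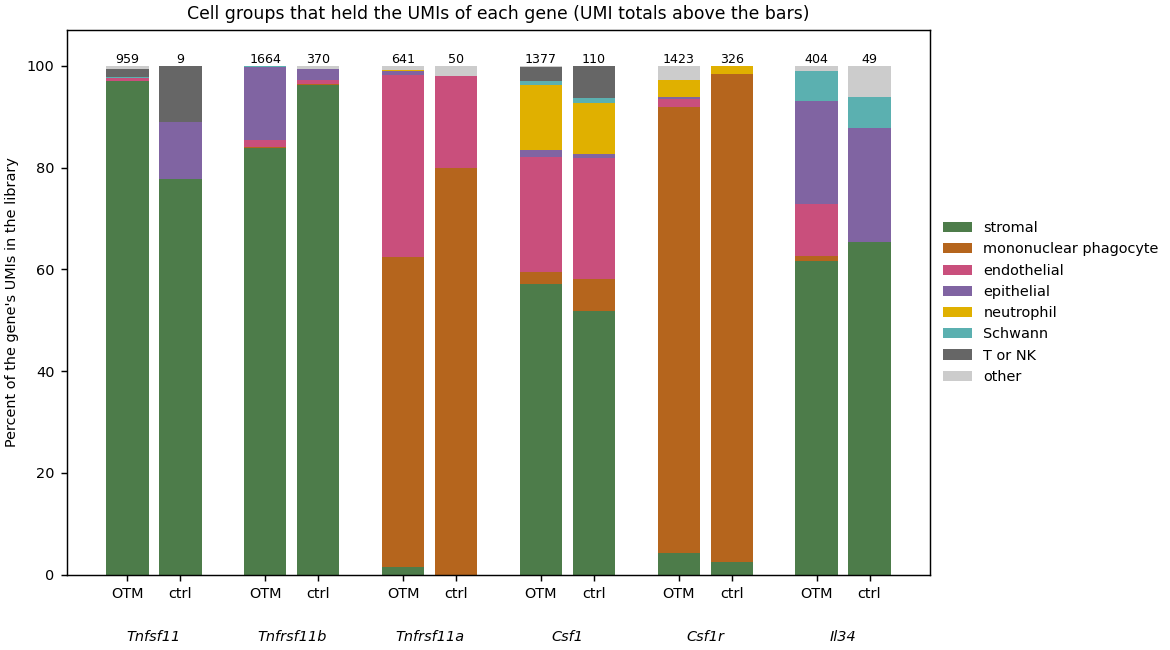
Share of each gene's UMIs (vertical axis, percent of the gene's UMIs in the library) held by each cell group, with the OTM bar left of the control bar for each gene and the UMI total above each bar. Stromal cells make up most of the Tnfsf11 and Tnfrsf11b bars and mononuclear phagocytes most of the Tnfrsf11a and Csf1r bars; the control bar of Tnfsf11 rests on 9 UMIs.

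Over the whole libraries, Tnfsf11 and Tnfrsf11a were more than 2-fold higher in OTM, that is 2 of the 6 genes, where 13.8% of all genes with at least 20 UMIs in the library with the higher level differed by 2-fold or more in either direction and 6.07% were higher by that much. Tnfsf11 had 959 UMIs, or 27.0 CPM, in OTM and 9 UMIs, or 1.61 CPM, in control, a log2 ratio of 4.07 (3.14 to 5.20). Tnfrsf11a was at 18.05 CPM in OTM and 8.94 CPM in control, with a log2 ratio of 1.01 (0.60 to 1.46). Csf1, at 38.8 CPM in OTM and 19.7 CPM in control, fell just short of 2-fold at 0.98 (0.70 to 1.27). The decoy and the M-CSF receptor differed in the other direction. Tnfrsf11b was at 46.8 CPM in OTM and 66.1 CPM in control, a log2 ratio of -0.50 (-0.66 to -0.33), and Csf1r was at 40.1 CPM in OTM and 58.3 CPM in control, a ratio of -0.54 (-0.72 to -0.36). For Il34 the interval of the log2 ratio, 0.38 (-0.05 to 0.84), included 0. The median log2 ratio of all genes measured in this way was 0.07. Library totals mix a gene's level in a cell type with the number of cells of that type, and the cell groups are therefore described separately.

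Tnfsf11, the osteoclast differentiation ligand, was read mainly in stromal cells, and also in the small T or NK-like and B or plasma-like clusters. Stromal cells had 930 UMIs, or 51.9 CPM (48.6 to 55.3), in OTM and 7 UMIs, or 2.03 CPM (0.82 to 4.19), in control, a log2 ratio of 4.68 (3.63 to 5.99). A Tnfsf11 UMI was found in 192 of 690 OTM stromal cells (27.8%) and in 4 of 160 control stromal cells (2.50%). With each cell thinned to 1500 UMIs, the shares were 5.02% in OTM and 0% in control. Neutrophil-like cells were the planned background of free RNA for Tnfsf11, and epithelial-like cells were added to it. Epithelial-like cells had a Tnfsf11 UMI in 1 of 126 OTM cells (0.79%) at a median of 34944 UMIs, deeper than the 21843 of OTM stromal cells. In control they had 1 UMI in 20 cells, or 2.37 CPM (0.06 to 13.2). The low control stromal level was thus not told apart from this background. Macrophage or monocyte-like and neutrophil-like cells had no Tnfsf11 UMI in either library. For the 148 OTM neutrophil-like cells, that allows a share of cells with a UMI of up to 2.03% by the limit of 3 counts, with an exact upper bound of 2.46%. Of the 5 axis genes that could be measured in stromal cells, Tnfsf11 and Csf1 passed 2-fold, both higher in OTM, against 6.84% of all genes higher in OTM and 11.5% in either direction.

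Within the stroma, Tnfsf11 differed between clusters of the OTM library. The fibroblast-like cluster led by Ccn5, Mmp13 and Fmod had 348 UMIs, or 86.0 CPM (77.2 to 95.5), and a UMI in 82 of its 130 cells (63.1%). Fibroblast-like cells with cycling genes had 87.4 CPM (71.1 to 106), and a UMI in 19 of 28 cells. Neither cluster held any control cell, so neither can be compared between the libraries, and with 1 library per condition a cluster made of 1 library may be a feature of that library. The remaining fibroblast-like cells, led by Aspn and Postn, were at 37.2 CPM (32.4 to 42.5) in 256 OTM cells and at 5.95 CPM (1.23 to 17.4; 3 UMIs in 2 cells) in 29 control cells, a log2 ratio of 2.64 (1.08 to 4.93). In the unnamed cluster led by Pcp4 and Wif1, which held 115 OTM and 91 control cells, Tnfsf11 was at 21.4 CPM in OTM and 2.01 CPM in control, a log2 ratio of 3.41 (1.97 to 5.34). Single cells weighed on both clusters, with 62 of the 216 OTM UMIs of the Aspn and Postn cells and 23 of the 52 of the Pcp4 and Wif1 cluster in 1 cell each. Without the top cell of each library, the Aspn and Postn cells were at 26.7 CPM in OTM and 2.14 CPM in control, and the Pcp4 and Wif1 cluster at 12.4 CPM in OTM and 0.52 CPM in control. Tnfsf11 was thus higher in OTM also in both of these clusters, which the libraries shared.

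The osteoblast lineage-like cells fell into a pair of clusters with opposite Tnfsf11 levels. The cluster led by Ibsp, Spp1 and Enpp1 had 208 UMIs, or 108 CPM (93.9 to 124), in 78 OTM cells and 0 UMIs in 14 control cells, so it was at least 5.09-fold higher in OTM against a floor of 3 UMIs in the control sum. Those OTM UMIs lay in 23 cells, and at most 38 in a single cell. The summed osteoblast lineage markers of this cluster also differed between the libraries, as given below with the decoy. The cluster led by Bglap and Dmp1, genes of mature osteoblasts and osteocytes, had 0 Tnfsf11 UMIs in 55 OTM cells and 0 in 20 control cells. The level in the osteoblast lineage-like cells as a whole, 56.6 CPM in OTM, thus came from 1 of its 2 clusters.

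In the T or NK-like cluster Tnfsf11 was at 96.8 CPM (55.3 to 157) in 17 OTM cells and 22.1 CPM (0.56 to 123) in 6 control cells. This rested on 16 UMIs in 4 OTM cells, 11 of them in 1 cell, and on 1 UMI in control. The cluster was led by Cma1 and Gzmb and also held mast cell transcripts, with all 7 mast markers detected in OTM. T cells are a known source of RANKL, but here the cluster held 1.67% of the OTM UMIs. The 26 B or plasma-like cells of the OTM library were at 21.1 CPM (5.76 to 54.1), from 4 UMIs.

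Tnfsf11 lies on the minus strand at chr14:78277445-78308043 (GRCm38), and Csf1 on the minus strand at chr3:107741048-107760469. Tnfrsf11b is at chr15:54250619-54278484 on the minus strand, Tnfrsf11a at chr1:105780718-105847981 on the plus strand and Il34 at chr8:110741829-110805924 on the minus strand. The promoters of Tnfsf11 and Csf1 are shown because these were the axis genes past 2-fold in stromal cells. Each is given 5′ to 3′ on the gene's own strand, from 250 bases before to 50 after the RefSeq start (GRCm38.p6), at chr14:78307994-78308293 for Tnfsf11 and chr3:107760420-107760719 for Csf1.
Tnfsf11 promoter: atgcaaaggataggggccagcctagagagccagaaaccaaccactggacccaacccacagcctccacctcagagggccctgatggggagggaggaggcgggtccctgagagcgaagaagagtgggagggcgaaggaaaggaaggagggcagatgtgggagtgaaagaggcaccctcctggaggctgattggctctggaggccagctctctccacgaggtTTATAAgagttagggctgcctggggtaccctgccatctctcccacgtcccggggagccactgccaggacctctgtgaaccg
Csf1 promoter: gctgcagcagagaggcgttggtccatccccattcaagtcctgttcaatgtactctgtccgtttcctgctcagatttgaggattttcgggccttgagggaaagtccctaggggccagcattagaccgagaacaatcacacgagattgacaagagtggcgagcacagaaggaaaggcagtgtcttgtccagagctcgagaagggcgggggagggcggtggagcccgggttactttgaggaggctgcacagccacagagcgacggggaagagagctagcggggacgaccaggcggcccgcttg
Capitals mark letters that match TATAA, the TATA box core, on either strand; the 2 matches in the Tnfsf11 promoter overlap on opposite strands over bases 220 to 225, and the first begins at position -31 from the start. No letters matched in the Csf1 promoter. The other letters searched on both strands were TGTGGT (a RUNX core), TGANTCA (AP-1) and TTCNNNGAA (STAT), with N for any base, and these matched in neither promoter. Over 32851 RefSeq promoters of the same length, 24.9% held the TATA letters, 16.8% the RUNX, 7.81% the AP-1 and 8.30% the STAT letters. A match in letters is a description and not a binding site.

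**Figure D2:**
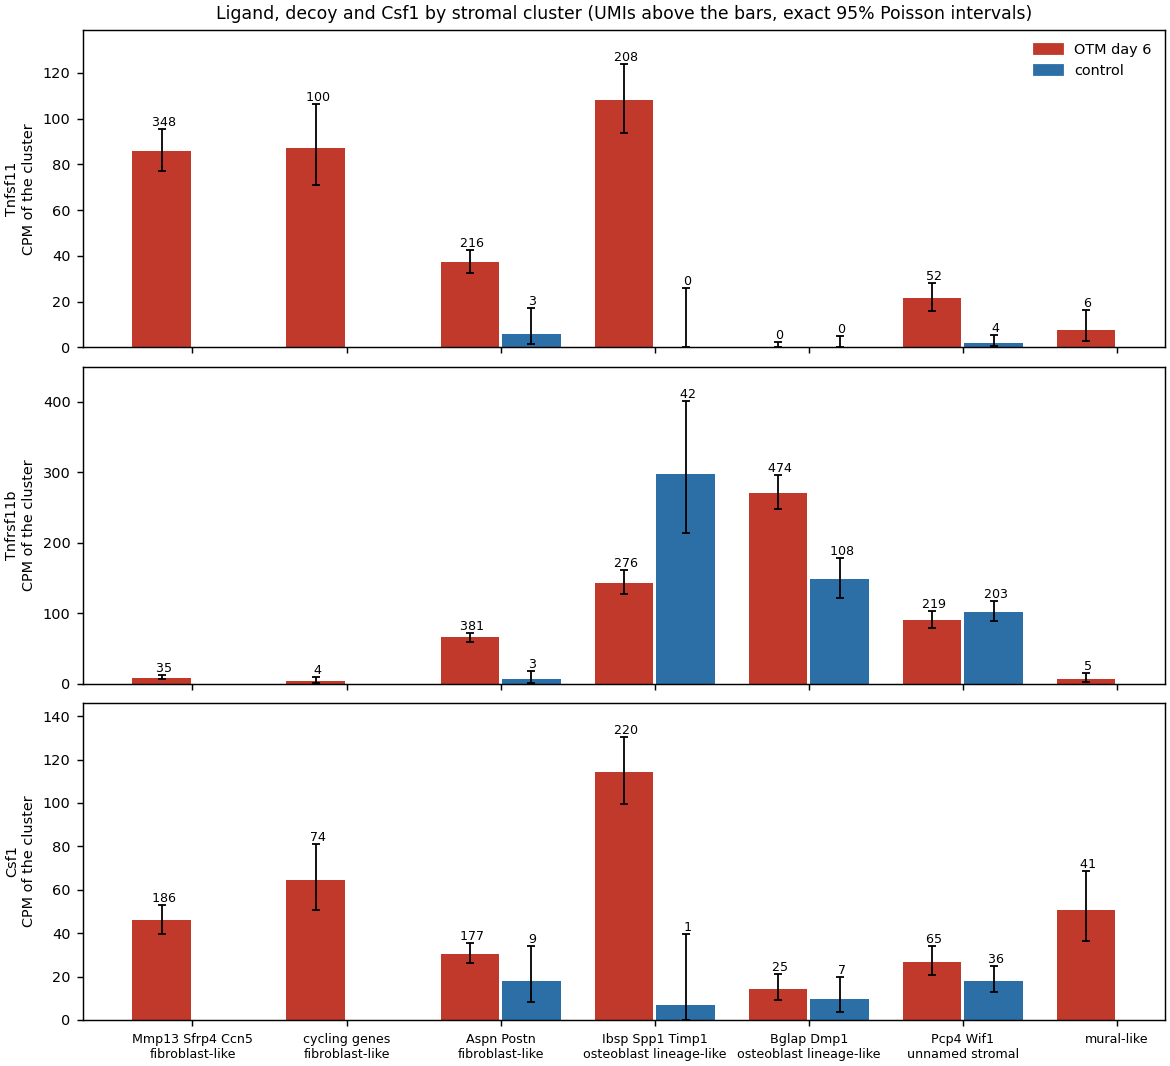
Levels of Tnfsf11 (top), Tnfrsf11b (middle) and Csf1 (bottom) in CPM of the cluster on the vertical axis, by stromal cluster on the horizontal axis, with OTM bars left of control bars, UMI sums above the bars and exact 95% Poisson intervals. Bars are drawn for at least 10 cells, so the Mmp13 and cycling clusters and the mural-like cells show OTM only; the Bglap and Dmp1 cluster has no Tnfsf11 UMI in either library and is high in Tnfrsf11b in both.

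Tnfrsf11b, the decoy, was highest in osteoblast lineage-like cells of both libraries, at 204 CPM (190 to 219) in OTM and 172 CPM (146 to 202) in control. It was next highest in the unnamed stromal cluster led by Pcp4 and Wif1, at 89.98 CPM (78.5 to 103) in OTM and 102 CPM (88.4 to 117) in control. Intervals of these groups did not overlap within either library, while both ratios between the libraries had intervals that included 0, at 0.25 (-0.01 to 0.51) and -0.18 (-0.46 to 0.10). Over all stromal cells it was at 77.8 CPM in OTM and 103 CPM in control, a log2 ratio of -0.41 (-0.58 to -0.24). This ratio changed with the clusters that were counted. In clusters with at least 5 cells in each library the log2 ratio was 0.04. With the control clusters weighted by the composition of the OTM stroma it was 0.28. Both values include 1 Aspn and Postn fibroblast-like cell with 208 UMIs. Without the top cell of each library, the ratio over all stromal cells was -0.58 (-0.76 to -0.40). The Mmp13-rich fibroblast-like cells, present in OTM alone, had only 8.65 CPM (6.02 to 12.02), and the cycling fibroblast-like cells 4 UMIs.

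Between the osteoblast lineage-like clusters the decoy differed in opposite directions. In the Bglap and Dmp1 cluster it was at 271 CPM (247 to 297) in OTM and 148 CPM (121 to 179) in control, a log2 ratio of 0.87 (0.57 to 1.19). In the Ibsp and Spp1 cluster it was at 143 CPM (127 to 161) in OTM and 297 CPM (214 to 402) in control, a ratio of -1.05 (-1.52 to -0.55). The summed level of the 10 osteoblast lineage markers moved the same way, at 27200 CPM in OTM and 16600 CPM in control in the Bglap and Dmp1 cluster, and at 14150 CPM in OTM and 28700 CPM in control in the Ibsp and Spp1 cluster. Of these markers, 9 or 10 were detected in every case, with Mepe at 0 in control. The part of this shift in marker content in the Tnfrsf11b ratios was not tested. Nor was its part in the Tnfsf11 and Csf1 differences of the same clusters. The difference between the clusters itself was not tested either.

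A few cells carried much of the Tnfrsf11b signal elsewhere. In the Aspn and Postn fibroblast-like cells it was at 65.5 CPM in OTM and 5.95 CPM in control, a log2 ratio of 3.46 (1.90 to 5.75), but 208 of the 381 OTM UMIs came from 1 cell. Without the cell with the most UMIs in each library, 173 UMIs in OTM and 1 in control remained. Epithelial-like cells were at 43.5 CPM in OTM and 19.0 CPM in control, a ratio of 1.20 (0.19 to 2.42), against 14.6% of all genes past 2-fold there in either direction. With 116 of the 240 OTM epithelial UMIs in 1 cell, the ratio without the top cells was 0.59 (-0.58 to 2.06). In comparison, macrophage or monocyte-like cells had a Tnfrsf11b UMI in 2 of 77 OTM cells (2.60%) and 1 of 35 control cells (2.86%).

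The ligand and the decoy were set against each other as the share of Tnfsf11 among the UMIs of both genes, which does not depend on library scaling. Because 3' tags of different genes are not captured equally, this share is compared between cells and not read as a ratio of proteins. In stromal cells Tnfsf11 made up 40.0% (38.02 to 42.04) of 2324 UMIs in OTM and 1.93% (0.78 to 3.93) of 363 UMIs in control. The Pcp4 and Wif1 cluster, similar in cell number between the libraries, showed the same order, with 19.2% (14.7 to 24.4) in OTM, where 1 cell held 23 of the 52 Tnfsf11 UMIs, and 1.93% (0.53 to 4.87) in control. In the Ibsp and Spp1 cluster the share was 43.0% (38.5 to 47.5) of 484 UMIs in OTM and 0% of 42 UMIs in control, with an exact upper bound of 8.41%. The Bglap and Dmp1 cluster gave 0% in both libraries, of 474 UMIs in OTM and 108 in control. At the other end stood the OTM-only fibroblast-like cells, with 90.9% (87.5 to 93.6) in the Mmp13-rich cluster and 96.2% (90.4 to 98.9) in the cycling one. In the Aspn and Postn cells the share was 36.2% in OTM and 50% in control, where it rested on 6 UMIs.

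Cells with a Tnfsf11 UMI were less often seen with the decoy when all OTM stromal cells were pooled, and inside clusters the order varied. Tnfrsf11b was detected in 38 of 192 Tnfsf11-positive cells (19.8%, 14.4 to 26.1) and in 33.5% (29.4 to 37.9) of Tnfsf11-negative cells, although the positive cells were deeper, with medians of 32789.5 and 18639.5 UMIs. Within the Aspn and Postn cluster the shares were 14.5% of positive and 14.4% of negative cells. In the Mmp13-rich cluster they were 17.1% of positive and 10.4% of negative cells, in the Ibsp and Spp1 cluster 47.8% and 50.9%, and in the Pcp4 and Wif1 cluster 40% and 54.3%. In the cycling cluster 0 of 19 positive cells had the decoy (0%, up to 17.6) and 44.4% (13.7 to 78.8) of the negative cells. The intervals of positive and negative cells overlapped in each of these 5 clusters. Csf1 was detected in 67.7% of Tnfsf11-positive and 34.1% of Tnfsf11-negative stromal cells of the OTM library. The positive share was the higher one in the Ibsp and Spp1 cluster as well, 82.6% (61.2 to 95.05) against 32.7% (20.7 to 46.7), with medians of 42677 and 15184 UMIs. With cells thinned to 1500 UMIs the stromal shares were 5.88% (2 of 34 cells) and 4.51%, so depth moved with this pattern and no order is read from it.

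Tnfrsf11a, the receptor of RANKL, was highest in osteoclast-like cells. These 23 cells, all from the OTM library, had 237 UMIs, or 197 CPM (172 to 223), and a UMI in 21 cells. They made up 1.63% of OTM cells, while 0 of 348 control cells allow a share of up to 0.86% by the limit of 3 counts, with an exact upper bound of 1.05%. Their median depth of 57357 UMIs was the deepest of the named groups. Macrophage or monocyte-like cells followed, at 105 CPM (88.4 to 123) in OTM and 92.1 CPM (65.8 to 125) in control, a log2 ratio of 0.18 (-0.33 to 0.72). The same held in both of their clusters with at least 10 cells in each library, with 158 CPM in OTM and 131 CPM in control in the cluster led by Ccl4 and C1qc, and 100.6 CPM in OTM and 86.3 CPM in control in the cluster led by Mrc1 and Pf4. No difference in these cells was detectable at this depth. Over all mononuclear phagocytes Tnfrsf11a was at 123 CPM in OTM and 80.5 CPM in control, a log2 ratio of 0.61 (0.14 to 1.12), and without the osteoclast-like cells the ratio was -0.04. The higher phagocyte sum in OTM therefore went with the osteoclast-like cells.

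Endothelial-like cells also carried Tnfrsf11a, in both libraries. They had 230 UMIs, or 39.6 CPM (34.7 to 45.1), in OTM and 9 UMIs, or 31.7 CPM (14.5 to 60.2), in control, with a log2 ratio of 0.32 (-0.63 to 1.47). A UMI was present in 58 of 204 OTM cells (28.4%) and 6 of 14 control cells (42.9%). Fibroblast-like cells, deeper at a median of 24382.5 UMIs against 21645 in endothelial-like cells, had one in only 4 of 414 OTM cells (0.97%). Of the 58 positive endothelial-like cells in OTM, 4 (6.90%) had a Csf1r UMI. In these OTM cells Csf1r was at 3.79 CPM, and the 14 macrophage or monocyte markers, 13 of them detected, summed to 315.7 CPM. In control endothelial-like cells Csf1r had 0 UMIs and 6 of those markers were detected, with a sum of 394.6 CPM. In the stromal cells as a whole and in epithelial-like cells Tnfrsf11a stayed below 1 CPM. Among stromal cells, the mural-like cells of OTM had 1 UMI, or 1.23 CPM (0.03 to 6.88).

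Csf1, the M-CSF gene, was made by several cell groups, and its difference between the libraries was not the same in each. Osteoblast lineage-like cells were at 66.7 CPM (58.6 to 75.6) in OTM and 9.19 CPM (3.97 to 18.1) in control, a log2 ratio of 2.86 (1.86 to 4.09), where 12% of all genes passed 2-fold in either direction. As for Tnfsf11, the Ibsp and Spp1 cluster accounted for most of this. It was at 114 CPM (99.7 to 130) in OTM and 7.08 CPM (0.18 to 39.4) in control, from 220 and 1 UMIs, a ratio of 4.01 (1.52 to 9.32). The Bglap and Dmp1 cluster was at 14.3 CPM in OTM and 9.60 CPM in control, with a ratio of 0.58 (-0.67 to 2.03). Fibroblast-like cells were at 39.7 CPM (36.1 to 43.6) in OTM and 17.8 CPM (8.16 to 33.9) in control, a ratio of 1.15 (0.22 to 2.29), where 10.9% of all genes passed 2-fold. The ratio was 0.77 (-0.19 to 1.92) in the Aspn and Postn cells alone, since the OTM-only clusters were at 45.9 and 64.6 CPM. In all stromal cells it was 44.0 CPM in OTM and 16.5 CPM in control, a ratio of 1.41 (1.02 to 1.82), and a Csf1 UMI was present in 43.5% of OTM and 22.5% of control cells. Thinned to 1500 UMIs, these shares were 4.58% in OTM and 3.85% in control.

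Neutrophil-like cells were a further source of Csf1. They were at 158 CPM (136 to 184) in OTM and 28.7 CPM (14.3 to 51.3) in control, a log2 ratio of 2.47 (1.59 to 3.49). In these cells 23.6% of all genes passed 2-fold in either direction. The make-up of the group differed, since the cluster led by Acod1 and Il1b had 97 of 148 OTM and 12 of 33 control cells. The cluster of cells rich in granule genes, led by Retnlg and Mmp8, had 51 OTM and 21 control cells. Within the Acod1 and Il1b cluster Csf1 was at 324 CPM (277 to 376) in OTM and 165 CPM (79.2 to 304) in control, a smaller ratio of 0.97 (0.06 to 2.06). In the granule-rich cluster it was at 15.1 CPM in OTM and 3.10 CPM (1 UMI) in control. Macrophage or monocyte-like cells of the OTM library, at 18.2 CPM, were well below the neutrophil-like cells. Of their 26 Csf1 UMIs 22 came from 1 cell, without which the level was 2.97 CPM.

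In endothelial-like cells Csf1 differed in the other direction, at 53.9 CPM (48.1 to 60.3) in OTM and 91.6 CPM (59.8 to 134) in control. The log2 ratio was -0.76 (-1.34 to -0.13), where 10.8% of all genes passed 2-fold in either direction. It rested on 26 UMIs in 14 control cells, and without the top cell of each library it was -0.48 (-1.16 to 0.30). Mural-like cells were at 50.6 CPM in 28 OTM cells and 49.7 CPM in 6 control cells, with 41 and 4 UMIs. In the T or NK-like cluster 35 of the 36 OTM Csf1 UMIs came from 1 cell, so its 218 CPM describes that cell. Erythroid-like cells had 0 Csf1 UMIs in both libraries, and epithelial-like cells were at 3.26 CPM in OTM and 2.37 CPM in control.

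**Figure D3:**
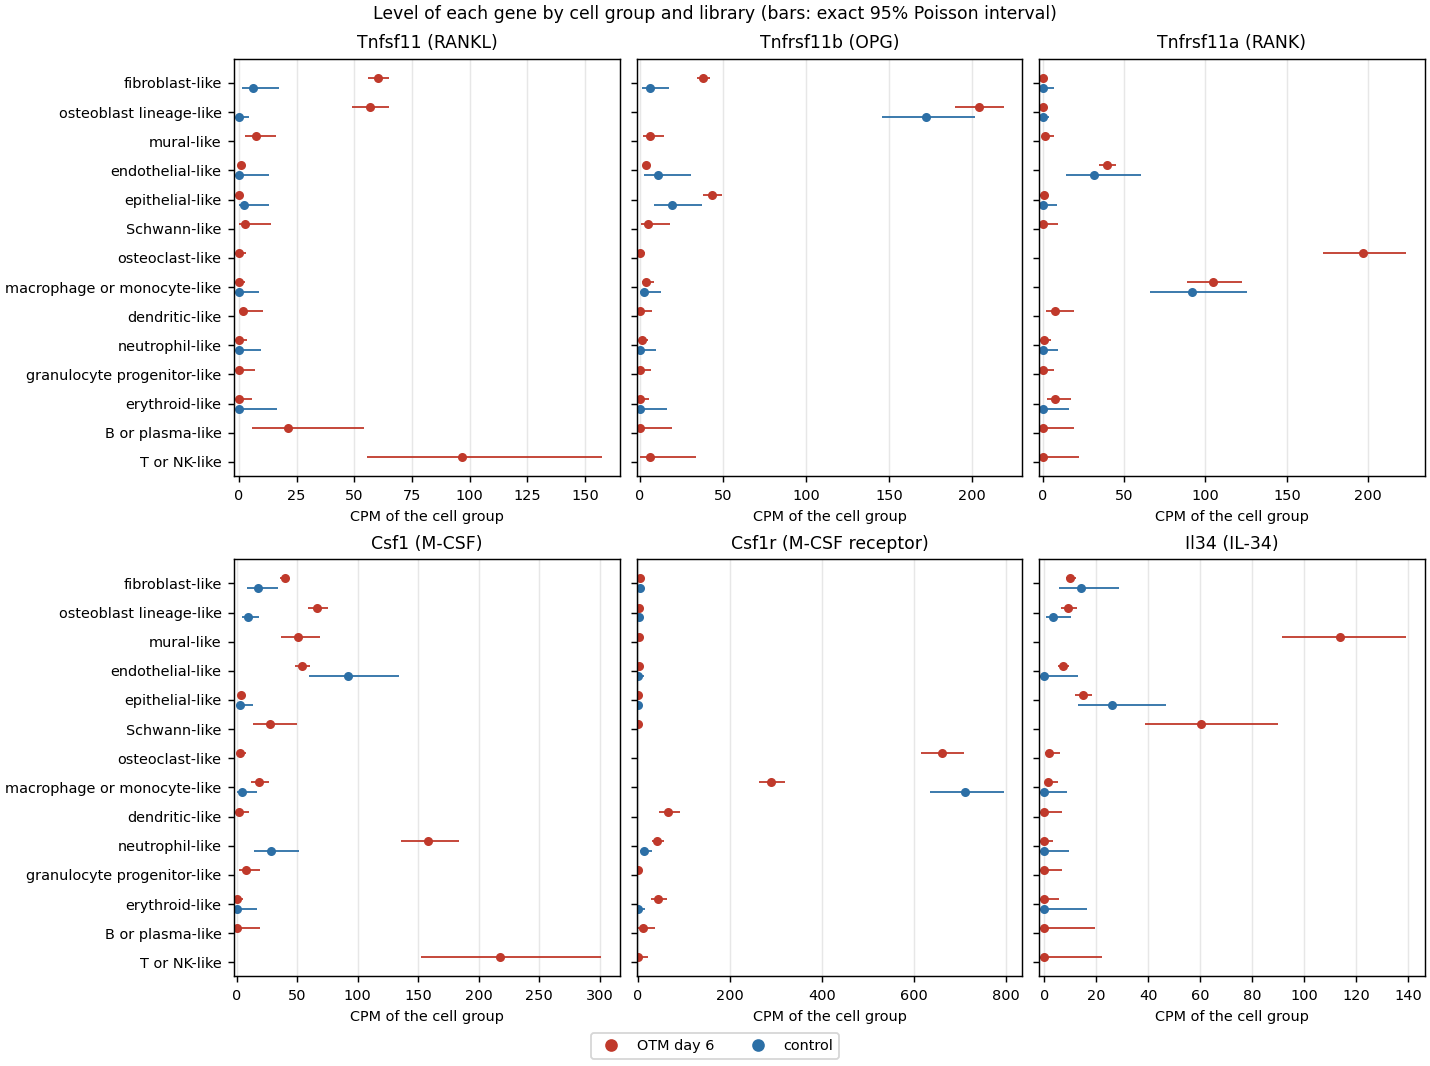
Level of each gene (horizontal axis, CPM of the cell group; 1 panel per gene, each with its own scale) by named cell group, with OTM points in red above control points in blue and exact 95% Poisson intervals as lines. Groups with fewer than 10 cells in a library have no point for it. Osteoclast-like cells lead for Tnfrsf11a and, in OTM, Csf1r, osteoblast lineage-like cells for Tnfrsf11b and mural-like cells for Il34.

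Csf1r, the receptor shared by M-CSF and IL-34, was read mostly from mononuclear phagocytes. The 23 osteoclast-like cells of the OTM library had 797 UMIs, or 661 CPM (616 to 709), with a UMI in every one of them, and 194 UMIs in 1 cell. Macrophage or monocyte-like cells were at 290 CPM (263 to 320) in OTM and 711 CPM (634 to 795) in control, a log2 ratio of -1.29 (-1.51 to -1.07). In these cells 28.3% of all genes passed 2-fold in either direction. The clusters differed in this, although the difference between them was not tested. In the Ccl4 and C1qc cluster, with 20 OTM and 13 control cells, it was at 237 CPM (198 to 282) in OTM and 632 CPM (526 to 753) in control, a ratio of -1.41 (-1.78 to -1.05). In the Mrc1 and Pf4 cluster, with 14 OTM and 17 control cells, the levels were the highest of any phagocyte cluster in either library, 914 CPM (744 to 1112) in OTM and 992.5 CPM (845 to 1158) in control, a ratio of -0.12 (-0.49 to 0.25). The cluster led by Lyz1 and Lyz2 was at 268 CPM in 26 OTM cells but had 1 control cell.

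Over all mononuclear phagocytes Csf1r was at 394 CPM in OTM and 630 CPM in control, a log2 ratio of -0.68 (-0.86 to -0.49). Neither it nor Tnfrsf11a, the 2 axis genes measured there, passed 2-fold, against 32.8% of all genes in either direction. Among osteoclast-like cells all 21 with a Tnfrsf11a UMI also had a Csf1r UMI. In the OTM Ccl4 and C1qc cluster 15 of 16 did. Neutrophil-like cells were at 43.0 CPM in OTM and 13.03 CPM in control, a ratio of 1.72 (0.40 to 3.41), whereas within the Acod1 and Il1b cluster the levels were 84.8 CPM in OTM and 82.6 CPM in control. A Csf1r UMI in 9.90% of OTM and 6.90% of control fibroblast-like cells came with levels of 4.18 CPM (3.06 to 5.57) in OTM and 3.96 CPM (0.48 to 14.3) in control. In the deeper epithelial-like cells of the OTM library it was in 4.76% of cells, at 1.09 CPM (0.40 to 2.37). In erythroid-like cells all 29 OTM UMIs came from 1 cell.

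**Figure D4:**
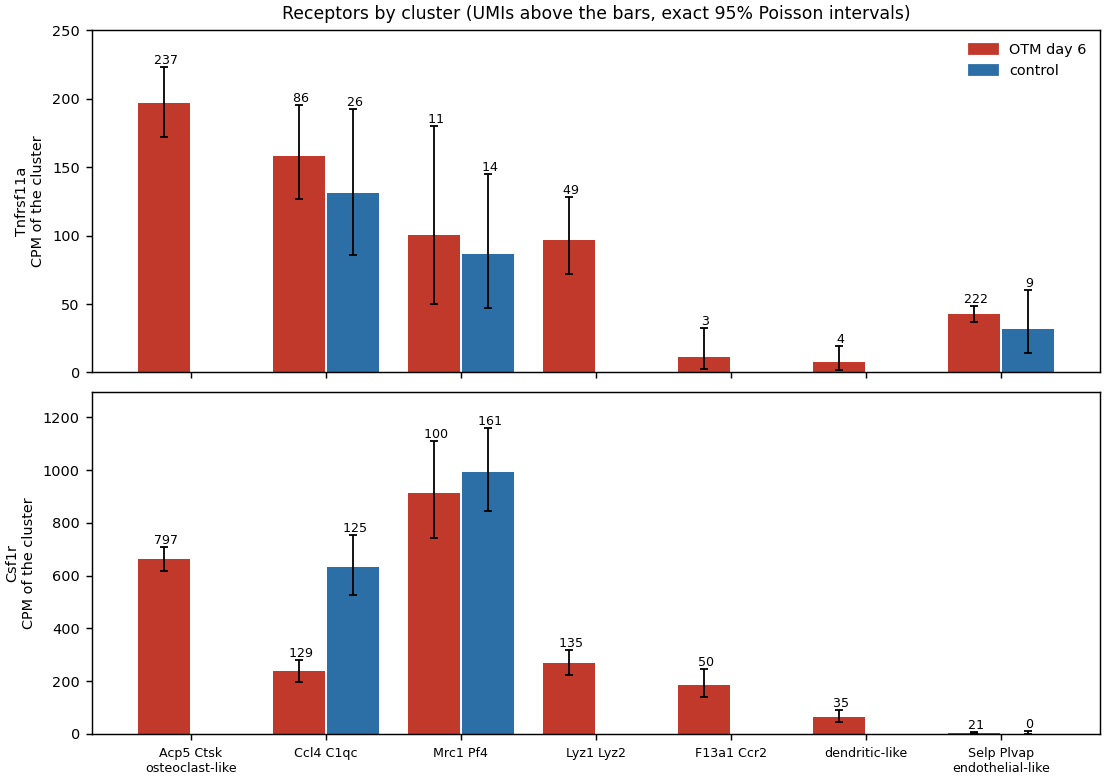
Levels of Tnfrsf11a (top) and Csf1r (bottom) in CPM of the cluster on the vertical axis, by mononuclear phagocyte cluster and for the main endothelial-like cluster on the horizontal axis, with OTM bars left of control bars, UMI sums above the bars and exact 95% Poisson intervals. Bars are drawn for at least 10 cells; Csf1r is lower in OTM in the Ccl4 and C1qc cluster (237 and 632 CPM) and close in the Mrc1 and Pf4 cluster, and endothelial-like cells carry Tnfrsf11a with little Csf1r.

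Il34, the second ligand of the M-CSF receptor, had another distribution from Csf1. It was highest in mural-like cells, the cells that wrap small vessels, at 114 CPM (91.6 to 139) in 28 OTM cells and 162 CPM (86.1 to 276) in 6 control cells. Schwann-like cells followed, at 60.3 CPM (38.6 to 89.7) in OTM and 55.3 CPM (11.4 to 162) in control, from 24 and 4 cells. Epithelial-like cells were at 14.9 CPM in OTM and 26.1 CPM in control, with a log2 ratio of -0.81 (-1.73 to 0.25). The mural-like ratio was -0.51 (-1.35 to 0.45) and the Schwann-like ratio 0.12 (-1.60 to 2.50), so no difference was detectable at this depth. Fibroblast-like cells were at 9.90 CPM in OTM and 13.9 CPM in control, a ratio of -0.49 (-1.58 to 0.86), and osteoblast lineage-like cells at 8.99 CPM in OTM and 3.45 CPM in control, from 33 and 3 UMIs. Neutrophil-like cells had 0 Il34 UMIs in both libraries. The stromal sum was 13.9 CPM in OTM and 9.29 CPM in control, a ratio of 0.58 (0.05 to 1.16). It turned to -0.23 when the control clusters were weighted by the OTM composition.

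The order of the groups with at least 10 cells was partly resolved by the counts. For Tnfrsf11a in OTM, the intervals of osteoclast-like, macrophage or monocyte-like and endothelial-like cells did not overlap, in that order. For Csf1r the osteoclast-like cells came first in OTM and their interval did not overlap that of macrophage or monocyte-like cells, which led in control. For Tnfsf11 in OTM, T or NK-like, fibroblast-like and osteoblast lineage-like cells had overlapping intervals with their neighbours in the order and so were not told apart. For Csf1 in OTM, the T or NK-like and neutrophil-like intervals overlapped at the top, and those of osteoblast lineage-like, endothelial-like, mural-like and fibroblast-like cells overlapped from one to the next below them. In control, endothelial-like cells came first for Csf1, apart from the neutrophil-like cells that followed. Epithelial-like cells came first for Il34 in control, where mural-like cells had fewer than 10 cells and were not ranked.

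**Figure D5:**
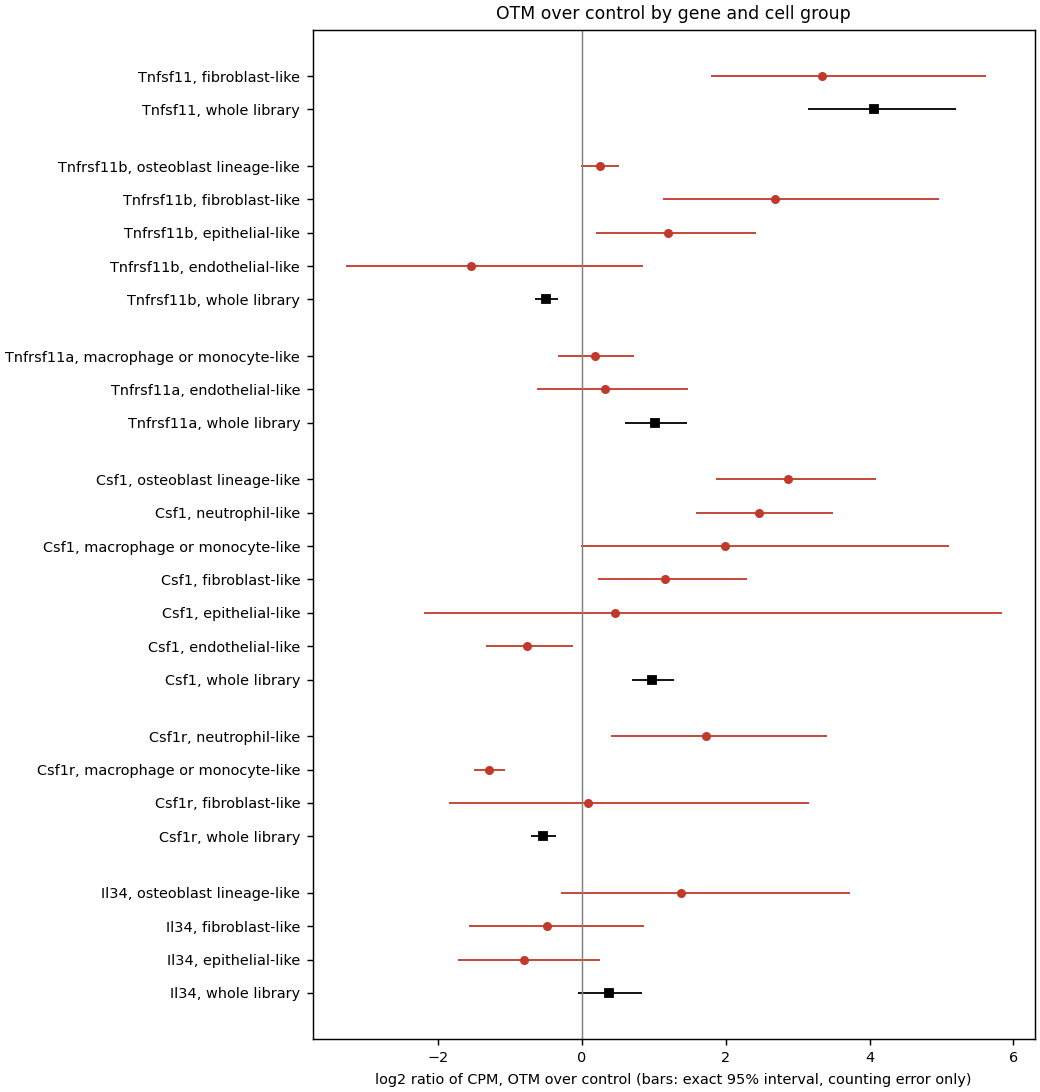
Log2 ratio of CPM, OTM over control (horizontal axis), for each gene in the whole library (black squares) and in named cell groups with at least 10 cells in each library, at least 10 UMIs in all and UMIs in both (red circles), with exact 95% intervals for counting error. Tnfsf11 lies to the right of 0 in both rows, while Csf1 lies to the right in osteoblast lineage-like, neutrophil-like and fibroblast-like cells and to the left in endothelial-like cells.

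Genes known to act on RANKL and OPG in stromal cells did not move as a block. Of a list of 20 such inputs, 19 had at least 20 UMIs in the library with the higher level, and 3 were 2-fold or more higher and 1 lower in OTM stromal cells, with a median log2 ratio of 0.33, against 0.06 over all genes measured there. Of those, 6.84% were 2-fold or more higher and 4.71% lower. By cluster, 5 of 17 measured inputs were higher in the Aspn and Postn cells and 5 of 14 in the Ibsp and Spp1 cluster. The shares of all genes higher there were 7.94% and 11.9%. In the Pcp4 and Wif1 cluster 0 of 16 passed 2-fold in either direction, and in the Bglap and Dmp1 cluster 0 of 14. There, 6.54% and 8.42% of all genes did. Over all stromal cells Il11, a cytokine of the interleukin 6 family that acts on stromal cells, was at 52.6 CPM in OTM and 4.06 CPM in control, a ratio of 3.70 (2.94 to 4.57). Lifr, the receptor of leukaemia inhibitory factor, was at 163 CPM in OTM and 62.7 CPM in control, a ratio of 1.38 (1.18 to 1.58). The other 2 genes past 2-fold, named after their values were seen, were Osmr, the receptor of oncostatin M, with 1.08 (0.87 to 1.31), and Il11ra1, the receptor of IL-11, which was lower at 110 CPM in OTM and 225 CPM in control, a ratio of -1.04 (-1.16 to -0.92). That lower level belongs to the pooled stroma. No measured gene of the list was 2-fold or more lower in any stromal cluster with at least 10 cells in each library. The libraries held the stromal clusters in different proportions, and the part of this in the Il11ra1 ratio was not tested. The most abundant of the list were Ptgs2, the inducible prostaglandin synthase, with a ratio of -0.09 (-0.19 to 0.01), and Tgfb1, which encodes a growth factor stored in bone matrix, with 0.39 (0.28 to 0.50). Of 5 proteases that can shed RANKL, 4 were measured and 1 passed 2-fold, Adam19 at 8.31 CPM in OTM and 4.06 CPM in control. Mmp14, a membrane metalloproteinase that cleaves RANKL, was at 927 CPM in OTM and 497 CPM in control, a ratio of 0.90 (0.83 to 0.97), and Adam10 had a ratio of 0.21 (-0.00 to 0.43). Of 4 further binding partners, 3 were measured. Sdc1, a heparan sulfate proteoglycan that can bind OPG, was at 184 CPM in OTM and 74.6 CPM in control, a ratio of 1.30 (1.12 to 1.49), and Ptprz1, a receptor phosphatase that can bind IL-34, had 0.04 (-0.32 to 0.42). Of the proteases, 0 of 4 measured passed 2-fold in fibroblast-like cells alone and 0 of 3 in osteoblast lineage-like cells. In the Pcp4 and Wif1 cluster 1 of 3 was higher. Of the partners, 1 of 2 was higher and 1 lower in fibroblast-like cells, and 1 of 3 higher in osteoblast lineage-like cells. In the Pcp4 and Wif1 cluster 0 of 2 partners passed. The shares of all genes past 2-fold in these 3 groups were 10.9%, 12% and 6.54%.

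In mononuclear phagocytes, some genes that act downstream of the receptors stood at different levels in osteoclast-like and in macrophage or monocyte-like cells. Of 16 genes of RANK adaptors and NF-kB, 14 were measured, 2 were 2-fold or more higher and 2 lower in OTM, with a median log2 ratio of -0.14 against 0.40 over all genes measured there. Of those, 23.3% were 2-fold or more higher and 9.56% lower. Nfatc1, the master transcription factor of osteoclasts, was at 215 CPM in OTM and 54.4 CPM in control, a ratio of 1.98 (1.43 to 2.59). It was at 465 CPM (427 to 505) in osteoclast-like cells, while macrophage or monocyte-like cells were at 66.6 CPM in OTM and 52.9 CPM in control. Traf6, the main adaptor of RANK, was at 40.1 CPM in OTM and 18.1 CPM in control, a ratio of 1.15 (0.18 to 2.31). Its ratio in macrophage or monocyte-like cells alone was 1.43 (0.21 to 2.94), from 53 and 6 UMIs. Fos, a partner of NFATc1, was at 627 CPM in OTM and 1355 CPM in control, a ratio of -1.11 (-1.24 to -0.98), and the abundant inhibitor gene Nfkbia had -0.31 (-0.42 to -0.20). In macrophage or monocyte-like cells alone the ratio of Fos was -0.83 (-0.98 to -0.69) and that of Nfkbia 0.09 (-0.03 to 0.21). Of the 14 genes measured there, 1 was 2-fold or more higher and 0 lower, with a median of 0.12. Over all genes measured in these cells the median was 0.39, with 22.6% 2-fold or more higher and 5.74% lower.

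Of 8 genes of co-receptors with ITAM adaptors, which give RANK its costimulatory signal, 7 were measured and Oscar alone passed 2-fold, from 111 UMIs in OTM and 1 in control, with 110 of the OTM UMIs in osteoclast-like cells. Oscar was also one of the markers that named these cells. Of all genes measured in mononuclear phagocytes, 32.8% passed 2-fold in either direction and 23.3% were higher by that much. The adaptor genes Tyrobp and Fcer1g had ratios of -0.06 (-0.16 to 0.05) and -0.54 (-0.64 to -0.44), and in macrophage or monocyte-like cells alone 0.19 (0.07 to 0.32) for Tyrobp and -0.03 (-0.14 to 0.08) for Fcer1g. All 10 genes of CSF1R signalling were measured and 3 were 2-fold or more lower, with a median of -0.58, where 9.56% of all genes were lower by that much. In macrophage or monocyte-like cells alone 0 were lower and 1 was higher, with a median of -0.04. Of all genes measured in those cells, 5.74% were lower and 22.6% higher by that much, with a median of 0.39. Spi1, the myeloid transcription factor PU.1, was at 587 CPM in OTM and 298 CPM in control, a ratio of 0.98 (0.74 to 1.23), and Grb2, an adaptor of receptor kinases, had -0.15 (-0.40 to 0.12). Inpp5d, the lipid phosphatase SHIP1, had -1.11 (-1.44 to -0.77).

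Of 8 genes known as brakes on osteoclast formation, 7 were 2-fold or more lower in OTM phagocytes, with a median log2 ratio of -1.10, against 9.56% of all genes lower there and a median of 0.40. The count was 1 of 8 when only macrophage or monocyte-like cells were compared, with a median of -0.56. In those cells 5.74% of all genes were 2-fold or more lower and 22.6% higher. The transcriptional repressor gene Bcl6 was that one. It was at 5.81 CPM in osteoclast-like cells, and in macrophage or monocyte-like cells at 73.0 CPM in OTM and 239 CPM in control, a ratio of -1.71 (-2.12 to -1.31). The 14 macrophage or monocyte markers, all detected in both libraries, had a summed level in mononuclear phagocytes of 14800 CPM in OTM and 24560 CPM in control, and their part in the counts of this list was not tested. Tnfaip3, which ends NF-kB signalling, and the inhibitory receptor gene Lilrb4a had ratios of -1.06 and -1.02 over all mononuclear phagocytes, and of -0.40 (-0.62 to -0.19) and -0.15 (-0.36 to 0.06) in macrophage or monocyte-like cells.

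Genes whose levels followed each axis gene most closely were ranked by Pearson correlation of log2(CPM + 10) over the 11 named cell groups of the OTM library with at least 20 cells, among 14464 genes. The 11 points share a library and differ in depth, and the correlations are descriptions. For Tnfsf11 these were Bcat1 (r = 0.95), 5430421F17Rik, Dnm1, Klhl22 and Eya1, and for Tnfrsf11b they were Gm47080 (0.98), Ngef, Dlx3, Pthlh and D030025E07Rik. Pthlh encodes the parathyroid hormone-related protein. Tnfrsf11a was followed by Ltc4s (0.96), Il4i1, Tcirg1, Tank and Raet1d, of which Tcirg1 encodes a subunit of the osteoclast proton pump. Csf1r was followed by Cd68 (0.99), Ccl9, Gpr137b, Gm48065 and Itgb7, where Cd68 was one of the markers that named macrophages. Csf1 was followed by Prkd3 (0.94), Selenon, Gm12216 and Sgms2, and Il34 by Prkaa2 (0.98), Plac9b, Fam81a, Trpc1 and Irgq.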

How the data were processed

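The files deposited by the authors held whole-number UMI counts per gene and barcode, written by Cell Ranger 7.0.1 according to the matrix headers. The processing notes of the submitters also name mm10, GRCm38 and Seurat, with no role; any cell filter by the authors is not given in the sources used here. The libraries held 1539 OTM barcodes with 36010801 counts and 369 control barcodes with 5723299. Barcodes under 200 genes or above 20% mitochondrial counts were left out. Scrublet marked 8 OTM and 2 control cells as doublets (0.567% and 0.575%), which were kept.

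With scanpy 1.11.5, cells were scaled to 10000 counts, and 2000 variable genes without the 6 axis genes, 30 components and 15 neighbours were clustered together (Leiden, resolution 1.0); phagocyte clusters were clustered again at 0.8. A name needed 3 detected markers and a score of 0.5. Unnamed clusters joined the compartment of their highest score; contrary to the fixed plan, clusters whose highest score rested on fewer than 3 detected markers (18 OTM and 50 control cells) were left unplaced, a choice made after seeing the data. The members and gene lists were chosen with earlier results of these data known. From each pathway list the 2 genes with most UMIs and up to 2 past 2-fold were named, and for likeness the 5 genes with the highest correlation; some of these are not reported here. The intervals were tested on simulated counts with known 4-fold changes. These counts were independent Poisson draws, the model that the intervals assume. The simulation therefore cannot show how the intervals hold where a few cells carry many of the UMIs. One library per condition allowed no test.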

Additional observations from a re-analysis of the deposited data

Results flagged for a closer look

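Some genes had a ratio with its interval above 0 in 1 cell group and another with its interval below 0. Those ratios are listed here, for groups with at least 10 cells in each library. The differences between the groups were not tested. For Tnfrsf11b the log2 ratio of OTM over control was 3.46 in the Aspn and Postn fibroblast-like cells, 0.87 in the Bglap and Dmp1 osteoblast lineage-like cluster and -1.05 in the Ibsp and Spp1 cluster. For Csf1 it was 1.15 in fibroblast-like, 2.47 in neutrophil-like and 2.86 in osteoblast lineage-like cells, and -0.76 in endothelial-like cells. By cluster, the Csf1 ratio was 0.97 in the Acod1 and Il1b neutrophil-like cells, 4.01 in the Ibsp and Spp1 cluster and -0.82 in the main endothelial-like cluster. For Csf1r it was 1.72 in neutrophil-like and -1.29 in macrophage or monocyte-like cells.

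OTM barcodes left out by the cell filter, used only in the alternative with no filter, held 19 Tnfrsf11a and 118 Csf1r UMIs among 492233 UMIs. The control barcodes left out held 0 of either among 129573 UMIs. With these barcodes kept, the whole-library log2 ratio was 1.07 for Tnfrsf11a and -0.41 for Csf1r.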

How the results depend on the processing

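Of the 19 alternatives run, at most 17 applied to any single ratio, and others concerned shares of cells or the background. Among 150 recomputed values of the ratios, 133 stayed inside the interval of the value as reported. Outside it lay 12 in the same direction, and 5 changed sign. The stromal log2 ratio of Tnfsf11 ranged from 3.61 to 5.35 and that of Csf1 from 1.22 to 1.51, all above 0. With the control clusters weighted by the OTM composition, chosen after seeing the data, Tnfsf11 was 3.61, the ratio of Tnfsf11 to Tnfrsf11b 3.33 in place of 5.08, Tnfrsf11b 0.28, Il34 -0.23 and, in mononuclear phagocytes, Csf1r -0.98. In clusters with at least 5 cells in each library, stromal Tnfrsf11b was 0.043 and phagocyte Csf1r -1.18. Without osteoclast-like cells, also an added alternative, phagocyte Csf1r was -1.46 and Tnfrsf11a -0.044; with the axis genes kept among those clustered, Csf1r was -0.46. Without the top cell, stromal Tnfrsf11b was -0.58. In the whole library Tnfrsf11b was -0.33 under median of ratios scaling and Csf1r -0.72 under a stricter cell filter. As a mean over cells, Tnfrsf11a was 0.33, Csf1 1.44, Csf1r -0.88 and Il34 -0.64. The cause of these shifts was not tested, except that the weighted and restricted values differ in the clusters they count. Among single shares, the 2.50% of control stromal cells with a Tnfsf11 UMI became 0 after thinning.

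Genes past 2-fold numbered 1469 in stromal cells and 2588 in mononuclear phagocytes, and 3331 and 4438 with every gene of at least 1 UMI. No paired analysis was possible because each condition had 1 library, for which reason no replicate could be left out. Control groups of few cells set the width of most intervals.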
